A study of Mus musculus with 6 samples.

Results

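Sites of poly(A) tags inside coding exons were described in the developing mouse retina. Whether each site is a true end of a transcript was not tested. A site was taken where its 3′ edge lay in a coding (CDS) or 5′ UTR segment of a GENCODE M21 protein-coding gene on the same strand, and in no 3′ UTR segment of any same-strand transcript. This gave 337 sites in 290 genes, out of 32688 sites in all, of which 32670 were nuclear. Of the 337 sites, 296 lay in CDS and 41 in 5′ UTR alone. They held 48797 of 23512242 nuclear tags, which is 0.208%, although they made up 1.03% of the nuclear sites.

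The samples were retinas of C57BL/6J mice of 3 embryonic ages, called E13.5, E15.5 and E18.5 after the day of gestation, and 3 postnatal ages, called P0, P6 and P21 after the day from birth, with 1 sample per stage and no treatment or altered gene in the labels. Poly(A) RNA was profiled by PA-seq, which reverse transcribes sheared RNA from an anchored oligo(dT) primer, so that each sequenced tag marks the place where a poly(A) stretch begins. The libraries held 3266638 to 4635128 nuclear tags. With 1 library per stage there were no replicates, and every test below was against the order of the stages. The labels do not say how many animals gave a sample or what the 2 count columns of a stage stand for, and the columns were added.

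Most messenger RNAs end in a 3′ UTR, where cleavage follows a poly(A) signal, usually the hexamer AATAAA or ATTAAA, that is bound by the cleavage and polyadenylation machinery. A transcript that ends inside the coding region lacks a stop codon, and such non-stop RNAs are known substrates of cytoplasmic decay. A transcript that ends in the 5′ UTR lacks the coding sequence itself. Oligo(dT) primers can also anneal to A-rich stretches within an RNA, and lysine codons (AAA and AAG) make such stretches common in coding sequence. The share of the tags below that came from such priming was not tested.

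Around the 337 sites the usual poly(A) signal was rare and A-rich sequence was common. Sequence was read along the spliced GENCODE M21 transcripts (GRCm38, mm10), not along the genome. AATAAA lay in the 40 bases before the edge, on the transcribed strand, at 56 of 335 sites where that sequence could be read (16.7%). AATAAA or ATTAAA was found at 67 (20%), against 15867 of 21287 3′ UTR sites (74.5%), 71.5% of sites in exons of noncoding genes and 68.5% of sites in other exons of coding genes. Neither these hexamers nor any of 9 variants (AGTAAA or TATAAA as well as CATAAA or GATAAA, then AATATA or AATACA or AATAGA, and finally AAAAAG or ACTAAA) was found at 217 (64.8%), against 10.4% of 3′ UTR sites. A site was called A-rich if the 20 bases after the edge held 6 A in a row or 7 A among any 10. By this rule 209 of 335 sites were A-rich (62.4%), against 685 of 11661 3′ UTR sites whose transcript reached that far (5.87%). These percentages are descriptions of sets of different origin and were not tested against each other.

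Both features seldom met at 1 site. AATAAA was present at 7 of the 209 A-rich sites (3.35%) and at 49 of 124 sites that were not A-rich (39.5%). The 41 sites in 5′ UTR alone stood between CDS sites and 3′ UTR sites, with 36.6% A-rich and 33.3% with AATAAA. The following sequences show the 6 sites with the most tags that had AATAAA and no A-rich sequence after the edge. Each is the 30 bases before the edge, 5′ to 3′, with the hexamer in capitals.
Zfp945, chr17:22852454-22852478, minus strand: agtgtacctagaAATAAAagaacataccaa
Pofut2, chr10:77260781-77260801, plus strand: cccgagtctcAATAAAaacatccccgttat
Kbtbd3, chr9:4330054-4330071, plus strand: gactttttAATAAAaagcattagtctggtc
4833420G17Rik, chr13:119469725-119469760, plus strand: gaccccaaaAATAAActagttgagaagacc
Ahsa2, chr11:23490419-23490448, minus strand: cacttcgaagaAATAAAaggtttacttgag
Gm9945, chr11:53480354-53480379, plus strand: taccacaaAATAAAagcaatattttacata

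In these 6 sequences the hexamer began 18 to 22 bases before the edge. The next sequences show 5 of the 6 sites with the most tags that were A-rich after the edge and had neither AATAAA nor ATTAAA before it. Each is the last 10 bases up to the edge and the 20 bases after it, and the 10-base stretch after the edge with the most A is in capitals.
Eprs, chr1:185407735-185407753, plus strand: aacagaccagattgggtcttGAAGCAAAAA
Acin1, chr14:54643950-54643983, minus strand: aagaagagtgAAAAGAAAGAaaaagcccag
Zfp664, chr5:124885512-124885532, plus strand: cgataccaaatAGGAAAAAAAatgatctac
Rbm42, chr7:30641137-30641157, minus strand: aagaagcagaaggAAAAGAAAAAgttgggc
Nop58, chr1:59710634-59710652, plus strand: agcagttcctagtccagAGAAAAAGAAgaa

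The capital stretches are mostly A, and the 20 bases after the edge held 8 to 13 A in these 5 sites. Over all 335 sites the median was 10 A among 20, against 5 at 3′ UTR sites.

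**Figure D1:**
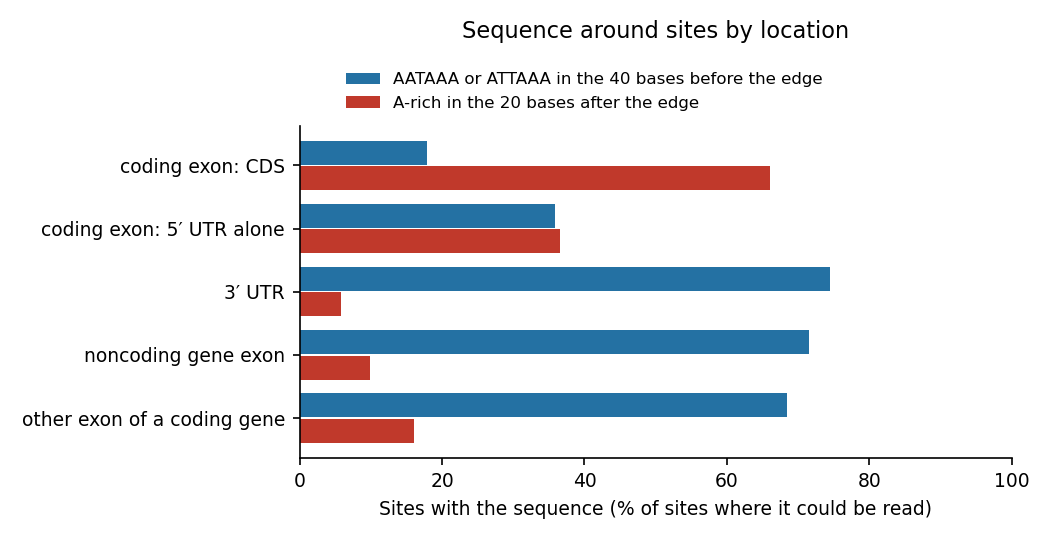
Percentage of sites with AATAAA or ATTAAA in the 40 bases before the edge (blue bars) and with A-rich sequence in the 20 bases after it (red bars), by location of the site (vertical axis). CDS sites were A-rich in 66.0% and had a hexamer in 17.9%, while 3′ UTR sites were A-rich in 5.87% and had a hexamer in 74.5%.

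The sites were spread along the whole coding sequence but many sat at exon ends. For the 296 CDS sites, a median of 46.7% of the coding sequence lay before the edge (quartiles 24.5% and 75.1%), and its 5 equal parts from start to stop held 60, 67, 49, 53 and 67 sites. Internal exons held 208 sites, the last exon 79, the first of several exons 50, and single-exon transcripts, which are counted in the last exon, 10. At 39 sites the edge was the last base of its exon, and at 86 (25.5%) it lay among the last 10 bases, which on average made up 3.14% of the length of the exons concerned. Of these 86 sites, 1 was in a last exon. At 39 of the 86 the bases read after the edge are all from the next exon, at the others the first few are from the same exon, and intron sequence was not used here. They were A-rich in 75.3% and had AATAAA in 6.98%, against 58% and 20.1% of the other 251.

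**Figure D2:**
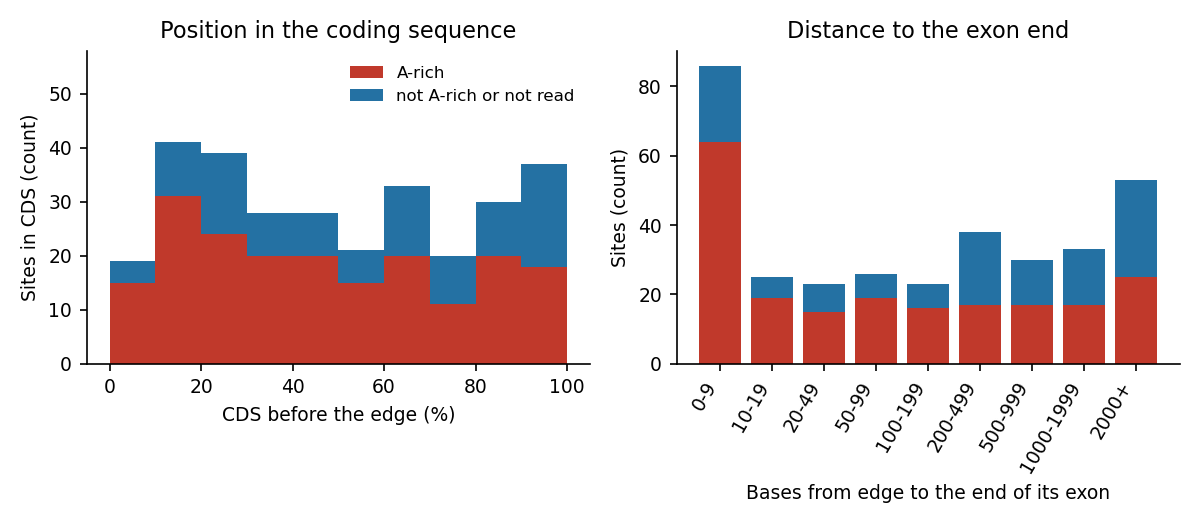
Left, number of CDS sites (vertical axis) by the percentage of the coding sequence before the edge. Right, number of all 337 sites by the bases from the edge to the end of the exon; 86 sites fall in the first bin, and red marks A-rich sites in both panels.

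Several of these edges could belong to annotated ends. The edge lay within 50 bases of an annotated transcript end at 41 sites and within 50 bases of a 3′ UTR at 30, and 275 sites were farther from both. At 12 sites an exon of another gene overlapped on the opposite strand. The library protocol keeps strand, and 2 sites lay in coding exons of more than 1 gene.

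Most of the sites held a minor part of the tags of their genes. They held 41 to 1395 tags over all libraries, with a median of 80, against a median of 395 at 3′ UTR sites and 83 at sites in introns of coding genes. The smallest total of any site in the series was also 41, so rarer sites were not seen. The median share of a gene's tags was 5.19% (quartiles 2.32% and 13.4%), and 164 of the 337 sites held less than 5%. There were 36 genes with more than 1 such site, holding 83 of them, and 326 sites were in genes with at least 1 other site elsewhere.

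The site with the most tags was in Eprs, which encodes the glutamyl-prolyl-tRNA synthetase. It lay at the last base of exon 20 of 32 and held 275, 256, 262, 193, 214 and 195 tags from E13.5 to P21. This was 26.2% of the gene's tags (95% Wilson interval 25.02% to 27.38%), and the share ran only from 25.5% to 28.1% over the 6 libraries. PCR reads are not independent molecules, so this interval and the others below cover counting error only. The fitted change of the site with stage order, given here and below as a log2 change from E13.5 to P21 with its standard error (SE), was -0.47 (SE 0.23), with an adjusted p of 0.169 from edgeR's quasi-likelihood test with Benjamini-Hochberg adjustment over all nuclear sites.

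The 12 sites with the most tags also included those of Acin1, Ccar1, Rbm42, Nop58, Hdlbp and Timeless. Acin1, a protein of the exon junction and apoptotic chromatin, had a site 9 bases before the end of exon 17 of 19 with 314, 264, 317, 129, 187 and 159 tags. It fell by 1.03 (SE 0.26, adjusted p 0.0222), and its share of the gene's tags was 35.1% at E18.5 and 15.9% at P0. Ccar1, a transcriptional coactivator, had 328, 225, 229, 138, 152 and 124 tags at its site and fell by 1.30 (SE 0.25, adjusted p 0.00843). The P0, P6 and P21 values were below every embryonic value at both sites. With counts scaled to library size, this held at 31.8% of the coding-exon sites and 14.9% of all nuclear sites. Rbm42, an RNA-binding protein, held 107 to 209 tags (fitted change -0.66, adjusted p 0.110), and Nop58, a core protein of box C/D small nucleolar ribonucleoproteins, held 95 to 176 (-0.83, adjusted p 0.0574). Hdlbp, the KH-domain protein vigilin, had 144, 121, 126, 59, 73 and 69 tags and fell by 1.16 (adjusted p 0.0298). Timeless, a protein of the replication fork, fell by 1.88 (adjusted p 0.0326), from 116 tags at E13.5 to 32 at P21, while its share was 34.2% and 41.6% of the gene's tags.

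The sites with AATAAA among these 12 had other profiles. Pofut2, an O-fucosyltransferase, had a site in exon 2 of 9 with 91, 76, 98, 153, 112 and 55 tags, highest at P0, where it held 43.2% of the gene's tags, against 17.2% at P21. Kbtbd3, a kelch and BTB domain protein, had its single site in the coding sequence, 24.4% of the way along, with 49, 97, 111, 70, 116 and 117 tags (fitted change 0.91, SE 0.38, adjusted p 0.117). Zfp945, a zinc finger gene, had 141, 166, 212, 166, 117 and 76 tags (fitted change -0.79, adjusted p 0.253). None of these 3 fitted changes passed the test, that of Pofut2 being 0.04 (adjusted p 0.974).

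The 5′ UTR sites with the most tags were in Zfp664 and Rbbp6. Zfp664, a zinc finger gene, had 308, 217, 242, 175, 178 and 138 tags at a site in its last exon upstream of the coding sequence, 53.2% of the gene's tags, and fell by 0.97 (adjusted p 0.0286). Rbbp6, a ubiquitin ligase that also belongs to the 3′ processing machinery, had 153, 141, 175, 180, 235 and 162 tags in exon 1 of 18, 29.7% of its tags (fitted change 0.46, adjusted p 0.336). Of the 5 sites that fell among the 12 with the most tags, none kept its call without the E13.5 library, 1 did without P6 and 1 without P21, 2 did without E15.5 and 4 without E18.5. Falls made up 8.96% of all nuclear sites tested and 15.5% of the coding-exon sites tested.

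At 17 of the 337 sites more than 50% of the tags of the gene lay at the site, and at 7 all of them did. The 7 were in Kbtbd3, Gm9945, BC005561, Usp51, Gm17655, Hist1h1a and Syne2. This set was chosen after the values were seen. Of the 17, 6 had AATAAA or ATTAAA before the edge and were not A-rich, among them those of the zinc finger genes Zfp945 and Zfp266. Abundance fell with stage at 6 of the 17 (Zfp664, Tmem80, Hist1h1e, Cox7c, Usp51 and Hist1h1a), of which 1 kept its call without P21, 3 without E13.5, E15.5 or P6 and 4 without E18.5, and none rose. Over all nuclear sites tested 8.96% fell and 15.1% rose, and over the coding-exon sites tested 15.5% and 4.76%.

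The share of nuclear tags at coding-exon sites was lower at later stages. In stage order it was 0.258% (95% Wilson interval 0.253% to 0.263%), 0.222%, 0.223%, 0.182%, 0.187% and 0.170% (0.166% to 0.174%). All 3 postnatal libraries lay below all 3 embryonic ones, and the largest step was from E18.5 to P0. Spearman's rho with stage order was -0.886 (exact two-sided permutation p 0.0333 over 720 orders, 0.0778 adjusted over 8 such tests), and Pearson's r was -0.947 (exact permutation p 0.0111, adjusted 0.0296). Without the first and the last stage r was -0.856. The smallest p that 6 libraries allow is 0.00278. In bulk tissue, fewer cells of a type and less RNA per cell cannot be told apart.

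Summed over the same genes, tags at their other sites were not lower to the same degree. The ratio below pools all these genes, so it also moves when the mix of genes changes. For every 100 tags at the other sites of the genes, the coding-exon sites held 7.78, 6.99 and 6.86 tags in the embryonic libraries and 5.73, 5.96 and 5.62 in the postnatal ones. Spearman's rho was -0.943 (exact permutation p 0.0167, adjusted 0.0667) and r was -0.938 (exact permutation p 0.0111, adjusted 0.0296), or -0.862 without the first and last stage. Sites in introns of coding genes are another class of sites upstream of the 3′ UTR. In stage order they held 1.62%, 1.75%, 1.79%, 1.88%, 2.00% and 2.13% of nuclear tags, a rise at every step. The ratio of the coding-exon share to the intron share fell at every step, from 0.159 at E13.5 through 0.127, 0.124, 0.0970 and 0.0935 to 0.0796 at P21. Its fall at every step rests in part on the rising intron share. The coding-exon share itself was slightly higher at E18.5 than at E15.5 and at P6 than at P0. For the ratio, Spearman's rho was -1 (exact permutation p 0.00278, the smallest 6 libraries can give, adjusted 0.0222) and r was -0.968.

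The lower share lay mostly in the A-rich sites. They held 0.172%, 0.142%, 0.138%, 0.0961%, 0.109% and 0.0977% of nuclear tags from E13.5 to P21 (rho -0.829, exact permutation p 0.0583, and r -0.912, exact permutation p 0.0167, adjusted 0.0333). The sites that were not A-rich held 0.0839%, 0.0785%, 0.0833%, 0.0848%, 0.0770% and 0.0717%, a range in which P0 was the highest (rho -0.600, exact permutation p 0.242). The ratio of A-rich to other coding-exon tags was 2.05, 1.81, 1.65, 1.13, 1.42 and 1.36 in stage order. Its trend did not pass the test after adjustment (rho -0.829, exact permutation p 0.0583, adjusted 0.0778; r -0.826, exact permutation p 0.0444, adjusted 0.0593).

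**Figure D3:**
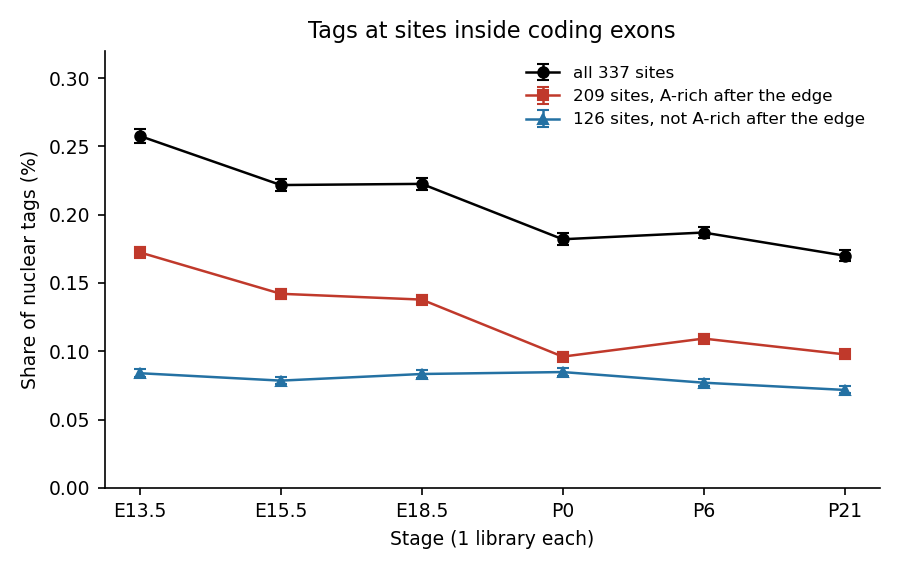
Share of nuclear tags (vertical axis, %) at all 337 sites (black), at the 209 A-rich sites (red) and at the 126 sites that were not A-rich (blue), by stage, with 1 library each and 95% Wilson intervals. The red line drops from 0.172% at E13.5 to 0.0977% at P21, and the blue line stays between 0.0717% and 0.0848%.

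Sites standing lower in all 3 postnatal libraries than in all 3 embryonic ones were counted after this step was seen. There were 107 of 337 (31.8%), against 14.9% of all nuclear sites, and 20 stood higher in all 3 (5.93%), against 16.2%. Among the A-rich sites 81 of 209 were lower (38.8%) and among the others 25 of 126 (19.8%). At the other sites of the same genes the share that was lower was 16.8%. With 1 library per stage, birth and any other difference between these 2 sets of libraries cannot be told apart.

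Markers of retinal cell types were present. Levels were summed over each list in CPM, the tag count scaled to library size. Sums of rods, cones, bipolar, amacrine and horizontal cells and Mueller glia were highest at P21. The sum of progenitors was highest at E13.5 and that of ganglion cells at E15.5. The rod sum did not rise at every step, at 669, 1394, 813, 1772, 3304 and 3647 in stage order. Onecut1 (horizontal cells) and Rpe65 (pigment epithelium) had no site. Summed CPM of 5 lens genes was 1654 at E15.5 and 1772 at P0, against 104 to 664 elsewhere, so these 2 libraries stood apart. Summed CPM of 4 red blood cell genes was 607 at E13.5 and 394 at E15.5, against 111 to 294 later, and the part of either cell type in the results was not tested. None of the 19 listed lens genes and no globin gene held a coding-exon site. Without E13.5 alone rho of the share with stage order was -0.8 (exact permutation p 0.133). Without E15.5 and P0 the share of tags was still lower at each later stage (rho -1, exact permutation p 0.0833, the smallest 4 libraries allow).

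Site by site, falls were more frequent than rises. Abundance could be tested at 336 sites, of which 52 fell (15.5%) and 16 rose (4.76%). The background over all 32592 nuclear sites tested was 8.96% falling and 15.1% rising, so that falls outnumbered rises at coding-exon sites and rises outnumbered falls in the series. The median fitted change was -0.74, against 0.01 over all sites and -0.19 at the other sites of the same genes, of which 8.18% fell and 7.73% rose. A site needed a CPM of at least 1 in 2 libraries. Without the P21 library there were 4 falls and 3 rises. Without P6 there were 20 and 8, without E13.5 19 and 10, without E15.5 22 falls, and without both E15.5 and P0 22 falls. With days after conception in place of stage order there were 40 falls, of which 29 were among the 52, and the calls of the larger Acin1 site and of Ccar1, Zfp664, Hdlbp, Top1, Srsf11, Rfc1 and Eif4g2 described here were among those lost (adjusted p 0.0504 to 0.153).

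A-rich sites made up 42 of the 52 falls and 9 of the 16 rises. Of the 208 A-rich sites tested 20.2% fell, with a median change of -0.89, and of the 126 others 7.94% fell, with a median of -0.35. Where AATAAA was present, 4 of 56 fell, 3 rose, and the median was -0.06. Sites within 10 bases of an exon end had 17 falls among 86 and a median of -0.98, and 5′ UTR sites had 6 falls and 5 rises among 41 and a median of -0.13.

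**Figure D4:**
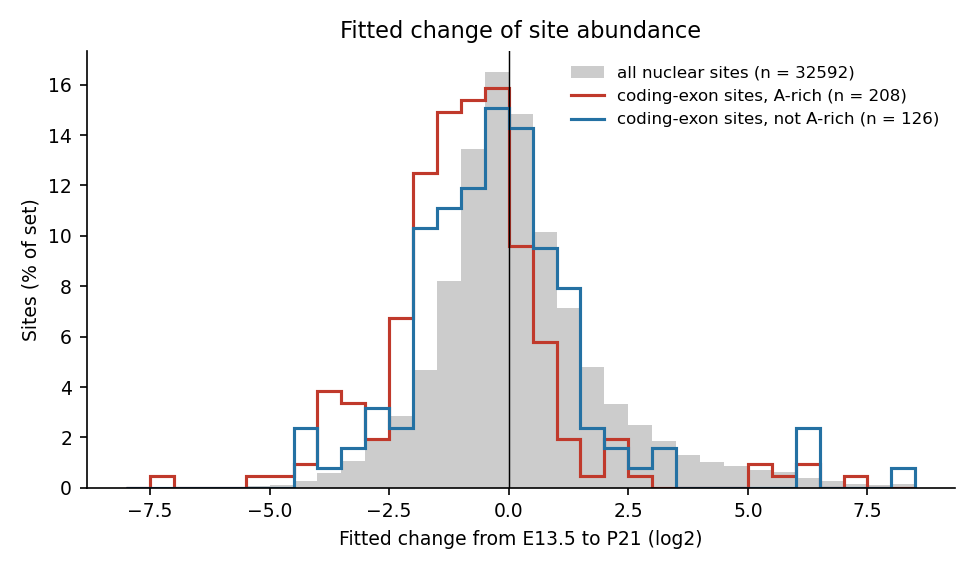
Distribution of the fitted log2 change from E13.5 to P21 (horizontal axis) as a percentage of each set in bins of 0.5 (vertical axis), for all nuclear sites (grey), A-rich coding-exon sites (red) and the others (blue). The red outline lies to the left of the grey one, with medians of -0.89 and 0.01.

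The falling sites mostly sat in genes whose other sites together were also lower at P21, with any decrease counted. Of the 52, 47 were in genes with other sites, and in 45 of these the other sites together were lower at P21 than at E13.5. The share of the gene's tags at the site was also lower at P21 in 44 of the 52. All 16 rising sites were in genes whose other sites were higher at P21. The matching counts of other sites over all coding-exon sites are not given here, so these counts describe the called sites alone. For sites chosen because they fell, a lower share at P21 is partly fixed in advance. In all, 246 of 336 sites held a smaller share of their gene at P21 than at E13.5. This count includes sites holding all tags of their gene, and the same count over all nuclear sites is not given here. In the fitted test of use, 73.9% of 330 coding-exon sites pointed down. The values were 51.8% of 21602 nuclear sites and 46.7% of the other sites of the same genes.

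Cell cycle and replication genes, which progenitors use before they leave the cycle, had 10 coding-exon sites in 6 of 39 listed genes (Mcm7, Mki67, Rfc1, Top2a, Smc2 and Cenpe). Of these 10 sites 7 fell and none rose, where 8.96% of all nuclear sites and 15.5% of the coding-exon sites fell. Sites near 0 at P6 and P21 passed the filter through the earlier libraries, so this count is a description. The median change was -3.60, or -2.44 as the observed log2 ratio of P21 over E13.5, for which any count below 3 was raised to 3. By that ratio the median was -0.83 over the coding-exon sites and 0.01 over all nuclear sites. Mcm7, a subunit of the replicative helicase, had 51, 56 and 80 tags in the embryonic libraries and 11, 7 and 6 in the postnatal ones at a site 5 bases from the end of exon 1, and fell by 3.77 (SE 0.90, adjusted p 0.0186). The groups did not overlap. By CPM, 31.8% of the coding-exon sites and 14.9% of all nuclear sites were lower in this way. The share of the gene's tags at this Mcm7 site was 5.94% at E18.5 and 1.01% at P0. The sequence across that edge was A-rich and is shown for comparison with those above.
Mcm7, chr5:138171731-138171747, minus strand: acgcgatcgaAAAAGAAAAAgttaagaagt

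A second Mcm7 site lay in the 5′ UTR of another transcript and had AATAAA. It held 13, 9, 15, 25, 26 and 21 tags (fitted change 1.28, SE 0.66, adjusted p 0.186). These were higher in all postnatal than in all embryonic libraries. By CPM, 5.93% of the coding-exon sites and 16.2% of all nuclear sites were higher in this way. The share of the gene at this second site was 0.905% at E13.5 and 6.58% at P21. Smc2, a condensin subunit, fell by 4.11 (27, 14, 21, 6, 2 and 1 tags, adjusted p 0.00995). Both sites of Top2a, the mitotic topoisomerase, fell, by 4.04 and 3.61. Mki67, the proliferation antigen Ki-67, had 56, 38, 60, 36, 5 and 2 tags at its larger site (fitted change -3.59, SE 1.17, adjusted p 0.0545), and Rfc1, the large clamp loader subunit, fell by 2.28 at its larger site (adjusted p 0.0201). None of the 7 calls remained without P21, 2 did without P6, 4 without E15.5, 5 without E13.5 and 6 without P0.

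Linker histone genes, which were grouped after their values were seen, had 5 sites in Hist1h1a, Hist1h1b and Hist1h1e, of which 4 fell. Of all nuclear sites tested 8.96% fell, and of the coding-exon sites 15.5%. The main messenger RNAs of linker histone genes end in a stem-loop and not in a poly(A) tail. Hist1h1e had 41, 62, 58, 20, 15 and 4 tags near the end of its coding sequence, 71.2% of the gene's tags, and fell by 3.15 (SE 0.79, adjusted p 0.0219). Hist1h1a had 19, 15, 16, 2, 1 and 0. Its site passed the filter only through the embryonic libraries, so the count of 4 falls is a description. These genes are close copies of each other, so the gene given to a tag is uncertain. Without P21 none of the 4 calls remained, without P6 1 did, and without E13.5 or E15.5 2 did.

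Further large falls were in Gli1, Hes1 and Topbp1. Gli1, the transcription factor at the end of Hedgehog signalling, had 29, 45, 33, 10, 2 and 3 tags in its 5′ UTR and fell by 4.11 (SE 0.95, adjusted p 0.0167). Hes1, the Notch target that keeps progenitors undifferentiated, had 87, 75, 83, 38, 22 and 18 in its 5′ UTR and fell by 2.43 (SE 0.47, adjusted p 0.00853), while its share was 12.4% of the gene at E13.5 and 11.04% at P21. Topbp1, a DNA damage checkpoint scaffold, had 94, 69, 95, 38, 18 and 11 tags and fell by 3.04 (adjusted p 0.00891). In all 3 the postnatal values lay below the embryonic ones, and all 3 sites were A-rich after the edge. By CPM, 31.8% of the coding-exon sites, 38.8% of the A-rich ones and 14.9% of all nuclear sites were lower in this way. For sites chosen because they fell, this is partly fixed in advance.

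In Top1, Srsf11 and Pdap1 the drop fell between E18.5 and P0 and the level then stayed low. Top1, the topoisomerase that relaxes DNA ahead of RNA polymerase, had 60, 52, 61, 8, 10 and 8 tags at the end of exon 4 of 21 and fell by 3.43 (SE 0.69, adjusted p 0.00993). Srsf11, a serine and arginine rich splicing protein, had 50, 43, 67, 9, 9 and 9 and fell by 3.04 (SE 0.76, adjusted p 0.0222). Pdap1, a protein first found bound to platelet-derived growth factor, had 47, 32, 34, 7, 8 and 4 and fell by 3.57 (SE 0.58, adjusted p 0.00471). The summed level of the other sites was 232 CPM (E13.5) and 214 CPM (P21) for Srsf11, 163 and 107 CPM for Top1, and 79.0 and 44.1 CPM for Pdap1. Without P21, 1 of the 8 falls named by size (Pdap1) kept its call, 5 did without either P6 or E15.5, and 7 did without E13.5. Sequences across the edges of Srsf11 and Pdap1, A-rich, and of Top1, not A-rich, follow with the same capitals as above.
Srsf11, chr3:158016318-158016335, minus strand: agccaggtacAAGAAGAAAGataaggacaa
Pdap1, chr5:145131381-145131401, minus strand: aagaaagaaagaggAAGAAAGGAAagcaaa
Top1, chr2:160682744-160682774, plus strand: ggaggaaaagATTAGAGCTGctggggatgc

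The edge of Top1 is the last base of its exon, so the letters after it are those of the next exon. Splicing and RNA-binding genes had 15 sites in 13 of 40 listed genes, of which 4 fell (2 in Acin1, 1 each in Srsf11 and Rbfox2), with a median of -1.51. Chromatin genes had 16 sites in 11 of 43 genes, of which 2 fell (Top1 and Psip1), with a median of -0.89. Over all nuclear sites 8.96% fell and over the coding-exon sites 15.5%, with medians of 0.01 and -0.74, and the chromatin count was close to these shares. Their largest sites, in Ash1l (505 tags, fitted change 0.30), Chd4 (385, -1.24) and Atrx (328, -0.57), were not called (adjusted p 0.548, 0.0708 and 0.324). Of the 4 splicing calls none remained without E13.5, E15.5, P6 or P21, and of the 2 chromatin calls 1 remained without E13.5, E15.5 or P6 and none without P21.

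The remaining lists held few sites. Translation factors had 3, of which that of Eif4g2 fell by 2.20 (30, 12, 19, 8, 7 and 6 tags, adjusted p 0.0295), a call lost without E13.5, P6 or P21. Rims2, an active zone protein, had the 1 site of 38 synapse genes (74 tags, fitted change 2.17, adjusted p 0.0798). Map1b, a microtubule-associated protein of growing axons, had 3 sites, the largest with 42, 39, 26, 11, 26 and 9 tags (fitted change -1.82, adjusted p 0.0537). Nucleolar and chaperone genes had the Nop58 site above and 1 in Tcp1 (64 tags, -1.49, adjusted p 0.148). Among genes of blood, vessels, pigment epithelium and mesenchyme, Rdh5 had 1 site with 45 tags (0.91, adjusted p 0.328).

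Rises were led by photoreceptor genes. Of 47 listed genes of rod and cone function 4 held coding-exon sites, 10 in all, and the 9 that could be tested all rose, where 15.1% of all nuclear sites and 4.76% of the coding-exon sites rose, with a median of 6.19, or 3.92 over the 10 by the observed ratio with low counts set to 3. Rp1, a microtubule protein of the photoreceptor axoneme, had 7 sites, the most of any gene, all in exon 4 of 4 between 16.3% and 98.7% of its coding sequence. At the Rp1 site with the most tags there were 1, 5, 6, 5, 58 and 83 tags, and at the next 0, 3, 1, 3, 62 and 82. Sites that are near 0 before P6 passed the filter only through the P6 and P21 libraries, so this count is a description. The 7 Rp1 sites were low up to P0 and high at P6 and P21. The share of all nuclear sites with this pattern is not given here, so this too is a description.

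The other sites of Rp1 were higher late as well. They summed to 6.59 CPM (E13.5) and 302 CPM (P21), and the gene had 30 tags and 1509 tags in these libraries. The site with the most tags held 3.33% of the gene at E13.5 (interval 0.591% to 16.7%) and 5.50% at P21 (4.46% to 6.77%), and the intervals overlap. Its fitted change was 6.23 (SE 0.83, adjusted p 0.00261). At sites with 0 tags in a library a fitted change is set partly by the prior count that edgeR adds and is no bound. Without P21, 3 of the 7 Rp1 calls remained, without P6 4 and without E13.5 6. No Rp1 site had AATAAA, and 5 of the 7 were A-rich, 2 of which are shown, with the 2 sites with the most tags, which are not A-rich by the rule.
Rp1, chr1:4348332-4348347, minus strand, A-rich: aagaaaccagAAAAAACAAAtgggagttaa
Rp1, chr1:4348875-4348936, minus strand, A-rich: caatgataagAAAAAAGTGAttgaaaccaa
Rp1, chr1:4348386-4348406, minus strand: aggaatggcaAAAAAGAGTTtagtcccaaa
Rp1, chr1:4346329-4346350, minus strand: aaaacaccgaAAAAGAGATCagtgaaggag

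Nrl, the transcription factor that specifies rods, had 1, 2, 2, 3, 43 and 27 tags at a site in exon 3 of 4, and Tulp1, a photoreceptor tubby-like protein, had 0, 2, 0, 3, 25 and 29. Slc24a1, the rod sodium, calcium and potassium exchanger, had 55 of its 61 tags at P21 and did not pass the filter on low counts. Of the 9 photoreceptor calls 3 remained without P21, 4 without P6 and 8 without E13.5.

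Outside photoreceptor genes, the named rises were in 5′ UTRs. Tmem35b, a transmembrane protein, had 60, 46, 88, 66, 119 and 132 tags (change 1.38, SE 0.36, adjusted p 0.0255). Gfm2, a mitochondrial elongation factor that recycles ribosomes, had 16, 18, 30, 23, 42 and 73 tags (2.16, SE 0.45, adjusted p 0.0111), and Add1, the membrane skeleton protein adducin, had 13, 13, 10, 19, 15 and 77 (2.51, SE 0.79, adjusted p 0.0480). Both Gfm2 and Add1 had AATAAA before the edge. The Gfm2 site was also A-rich after the edge, and at Add1 only the P21 library stood apart. The calls of all 3 were lost without P21, that of Tmem35b also without E15.5, E18.5 or P6, and that of Add1 without any 1 of E13.5, E15.5, E18.5 or P0.

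**Figure D5:**
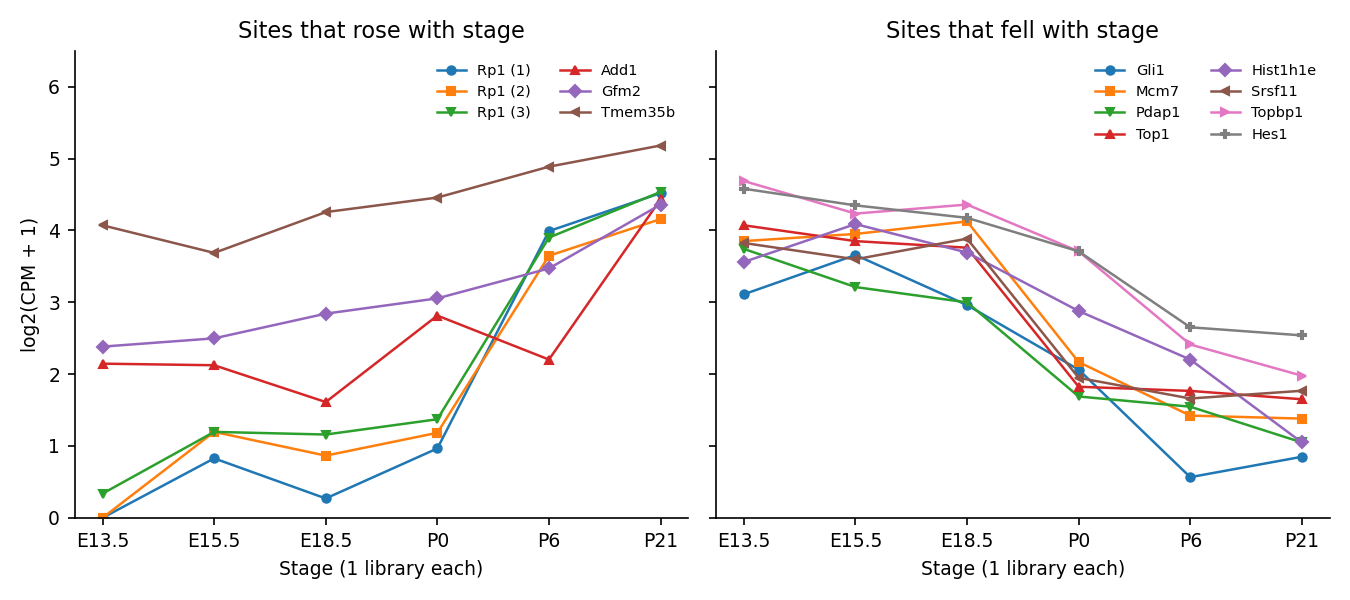
Level of the sites with the largest called changes as log2(CPM + 1) (vertical axis) by stage, with 1 library each; left, 6 sites that rose, and right, 8 that fell. The 3 Rp1 sites rise between P0 and P6, and Top1, Srsf11, Mcm7 and Pdap1 drop between E18.5 and P0.

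Use within the gene was tested against the gene as a whole and changed at few single sites. Of 330 sites tested, 1 gained and 1 lost use with stage (adjusted p of 0.05 or less), against 0.472% gaining and 0.181% losing of 21602 nuclear sites, so neither count stood apart from the background. At an unadjusted p under 0.05 there were 10 gaining (3.03%) and 30 losing (9.09%), against 3.65% in each direction over all nuclear sites tested. The gaining count was near that background, and the losing count was above it. The gain was in Spg7, which encodes the mitochondrial protease paraplegin, at a 5′ UTR site in exon 1 of 17 with 1, 4, 0, 1, 10 and 60 tags. It held 0.405% of the gene's tags at E13.5 (interval 0.0715% to 2.26%) and 10.1% at P21 (7.94% to 12.8%, adjusted p 0.0342). The 30 bases before its edge hold AATAAA.
Spg7, chr8:123065255-123065273, plus strand: aacttggactgttAATAAAacacaagagag

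The loss was at the Srsf11 site above, which held 5.37% (4.10% to 7.01%), 4.49% and 5.92% of the gene's tags in the embryonic libraries and 1.07%, 0.893% and 1.11% (0.586% to 2.10%) in the postnatal ones (adjusted p 0.0154). The embryonic and postnatal shares did not overlap, and how many sites of the series show this is not given here. The Top1 site, at 8.50% of its gene at E13.5 and 1.92% at P21 (adjusted p 0.0674), and the Pdap1 site, at 13.1% and 2.35% (adjusted p 0.0823), did not pass. The Spg7 call was lost without E13.5, E18.5, P6 or P21 and the Srsf11 call without E13.5, E15.5, P6 or P21, and a logistic model of tags at the site against tags elsewhere in the gene called neither.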

How the data were processed

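PA-seq libraries of 6 stages were used. Per the file headers, the deposited table gives, for each site, counts of tags in 12 columns, 2 per stage, and 1 score by the authors. The aligner was BWA 0.7.5a-r405 and the build mm10, according to the submitters' processing notes. How sites were called and filtered, and whether duplicates were removed, is not given in the sources used here. Counts were used as deposited, and the 2 columns of a stage were added.

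Each site was placed by its 3′ edge on GENCODE M21, and 0 count columns were left unmapped. Abundance per site was fitted in R 4.3.3 by edgeR 4.0.16 (quasi-likelihood test, TMM scaling, 1 linear term of stage order, 4 residual degrees of freedom). Use was tested with edgeR's diffSpliceDGE in genes with at least 2 sites and a mean of 20 tags per library. A site was called at an adjusted p of at most 0.05. SE is the absolute change over the square root of the F statistic. Shares were tested by exact permutation of the 6 libraries. The fits were tested on simulated data. DESeq2 1.42.0, other scalings, no filter, single columns, days after conception, left-out libraries and a logistic model were alternatives.

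Sites were named by rule: the 12 with most tags, up to 8 called in each direction by size of change with a mean of at least 5 CPM, up to 6 called in use, up to 3 with most tags per gene list, and 6 per sequence class, of which 1 sequence is not reported here. The sites, gene lists and tests were chosen with earlier results of these data known, so the lists are no independent support. Lists gave counts and medians without tests.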

Additional observations from a re-analysis of the deposited data

How the results depend on the processing

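No paired analysis was possible because each stage has 1 sample and the labels carry no replicate numbers shared by groups. The fall in the share of tags had rho of -0.9 to -0.8 when 1 library was left out and -1 without E15.5 and P0 (added after seeing the data; 4 libraries cannot reach 0.05), and -0.600 with the A-rich sites left out. The ratio to other sites had rho of -1 to -0.9 with 1 library left out, -1 without E15.5 and P0, -0.829 over 50 bases from annotated ends and -0.486 without A-rich sites. Sites that rose numbered 3 to 16 with 1 library left out and 7 without A-rich sites. Sites that fell numbered 4 to 60 with 1 library left out, 25 from the first count columns alone, 34 from the second, 22 without E15.5 and P0 and 10 without A-rich sites. Of the 52 falls, 4 were kept without P21, 29 with days after conception, 41 by DESeq2 and 50 with RLE scaling. Sites gaining use numbered 0 to 1 with 1 library left out, and 0 from the first columns, without E15.5 and P0, by quasi-binomial logistic regression and in CDS alone. Sites losing use numbered 0 to 2 with 1 library left out, and 0 from the second columns, without E15.5 and P0, by days after conception, by quasi-binomial regression, over 50 bases from ends and without A-rich sites. The causes were not tested, beyond fewer sites or libraries entering. No named site that was called changed direction under the alternatives run. Of those not called, Pofut2 (0.04) lay between -0.77 and -0.01 under 9 alternatives, among them days after conception and each left-out library but P21, Srrm2 (-0.77) was at 0.03 without E13.5, and the Eif5b sites (-0.87 and 0.11) were at 0.50 from the second columns and at -0.03 and -0.41 without E18.5 and without P21.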
